A study of Mus musculus with 15 samples.

Results

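The genes described here encode the oxidative phosphorylation (OXPHOS) system, the respiratory chain and ATP synthase of the inner mitochondrial membrane. Members were chosen by gene name, taking mt-Nd, mt-Co, mt-Cytb and mt-Atp names for the genes of mitochondrial DNA (mtDNA), and Nduf, Sdha to Sdhd, Uqcr, Cox4 to Cox8 and Atp5 names for the nuclear genes, with numbered pseudogenes left out. This gave 103 of the 14237 listed genes, of which 13 were mt- genes and 90 were nuclear, and all 103 were tested. By their known roles the mt- members were 7 subunits of complex I, 1 of complex III, 3 of complex IV and 2 of complex V. The nuclear members were 36 subunits of complex I, 4 of complex II, 8 of complex III, 16 of complex IV and 15 of complex V. The other 11 nuclear members carry such a name without being subunits, and 8 of these are the Ndufaf assembly factors of complex I. RNA was taken from the optic nerve of adult mice of the C57BL/6J strain. Each mouse had received AAV2, a gene delivery virus, into the vitreous of the eye, so that a virus injection was common to all 3 groups. The groups were optic nerve crush with AAV-CNTF, which carries a secretable form of ciliary neurotrophic factor, optic nerve crush with AAV-null, which has no transgene, and sham injury with AAV-null, in which the nerve was exposed without being crushed. Each group had 5 biological replicates, numbered 2 to 6. Crush followed the injection by 2 weeks and nerves were taken 7 days after crush, while the times of the sham operation were not given in the labels, nor was the promoter of the transgene. AAV2 given into the vitreous is known to reach mainly retinal ganglion cells, and the libraries read the nerve that holds their axons. Per library, expected counts over the listed genes came to 23775487 to 29558293 after crush with AAV-CNTF, 19918858 to 29138927 after crush with AAV-null and 19856688 to 26411929 after sham.

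OXPHOS is built from both genomes of the cell. Complex I (NADH dehydrogenase), complex III (cytochrome bc1), complex IV (cytochrome c oxidase) and complex V (ATP synthase) each mix subunits made inside the mitochondrion with subunits made from nuclear genes and imported, whereas complex II (succinate dehydrogenase) is entirely nuclear. The mt- genes are transcribed as long RNAs from both strands of mtDNA and then cut into shorter RNAs, with all mt- members but mt-Nd6 on the same strand. In the optic nerve, myelinating oligodendrocytes, astrocytes, immune cells and the mitochondria within retinal ganglion cell axons all contribute these transcripts, although nuclear messages of the axon are mostly made in the retina.

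Several mt- messages have near-perfect copies of mtDNA in the nuclear genome, and these limit how far single mt- values can be read. A 60-base stretch inside the cytochrome c oxidase subunit gene mt-Co2 is shown with the same stretch of 2 nuclear copies. These are Gm28661 on chromosome 1 and Gm13341 on chromosome 2, in the GENCODE M21 transcripts (GRCm38, the mm10 assembly). The mt-Co2 stretch lies at chrM:7457-7516 on the plus strand, the Gm28661 stretch at chr1:24615062-24615121 on the minus strand and the Gm13341 stretch at chr2:22587471-22587530 on the minus strand. Capitals mark bases that differ from mt-Co2.
mt-Co2: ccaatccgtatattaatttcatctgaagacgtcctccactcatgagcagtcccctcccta
Gm28661: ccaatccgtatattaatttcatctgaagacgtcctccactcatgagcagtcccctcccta
Gm13341: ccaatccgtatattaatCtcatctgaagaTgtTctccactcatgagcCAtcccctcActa
Gm28661 has no difference in this stretch, and Gm13341 has 6. Over its full length Gm28661 matched mt-Co2 at all 681 aligned bases. Of the 7 chromosome 1 rows aligned in this way, 5 had 0 mismatches, namely the copies of mt-Atp6, mt-Co3, mt-Nd4, mt-Co2 and mt-Nd4l, and the copies of mt-Nd3 and mt-Co1 had 1 each. Reads from such a stretch cannot be assigned to either place by sequence, so values of these 7 mt- members are uncertain as single rows and are also given as sums with their chromosome 1 copy. That alternative was added after the data were seen. Only 9 listed rows were compared with the mt- members. None of them had its best match in mt-Nd1, mt-Nd2, mt-Nd5, mt-Nd6, mt-Cytb or mt-Atp8. The rest of the table was not searched, so whether other rows copy these members is not known. mt-Atp8 shares 43 bases with mt-Atp6 and lies between mt-Co2 and mt-Atp6 on mtDNA. The copies of those 2 genes are neighbours, at chr1:24614885-24615565 and chr1:24613974-24614651. The mt-Atp8 row is therefore not free of this uncertainty.

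After crush the mt- class was low while the nuclear class was not. The values are CPM, read counts per gene put on one library size, with library sizes corrected by the trimmed mean of M-values. Summed over the 13 mt- members, CPM was 53490, 40120, 62120, 45630 and 41860 after crush with AAV-CNTF, 47320, 39150, 46960, 43760 and 44950 after crush with AAV-null, and 81870, 76170, 74600, 81140 and 77140 after sham. Every crush library lay under every sham library, with crush AAV-CNTF replicate 4 the highest of the crush libraries. Summed over the 90 nuclear members, CPM was 4255, 4310, 3688, 4187 and 4430 after crush with AAV-CNTF, 4015, 4585, 4032, 4162 and 3985 after crush with AAV-null, and 4291, 3730, 3973, 3677 and 3806 after sham, and these ranges overlapped. Other scales put the nuclear members higher after crush with AAV-null than after sham. Their share of all expected counts was 0.385% to 0.457% after crush with AAV-CNTF, 0.404% to 0.499% after crush with AAV-null and 0.329% to 0.394% after sham, so that the crush AAV-null libraries lay above all sham libraries and the crush AAV-CNTF libraries overlapped them. As a share of all expected counts, the mt- members took 5.06% ± 0.992 after crush with AAV-CNTF, 4.62% ± 0.305 after crush with AAV-null and 7.23% ± 0.361 after sham (SD, n = 5 each). In a whole nerve, fewer cells of a type and less RNA per cell cannot be told apart.

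**Figure D1:**
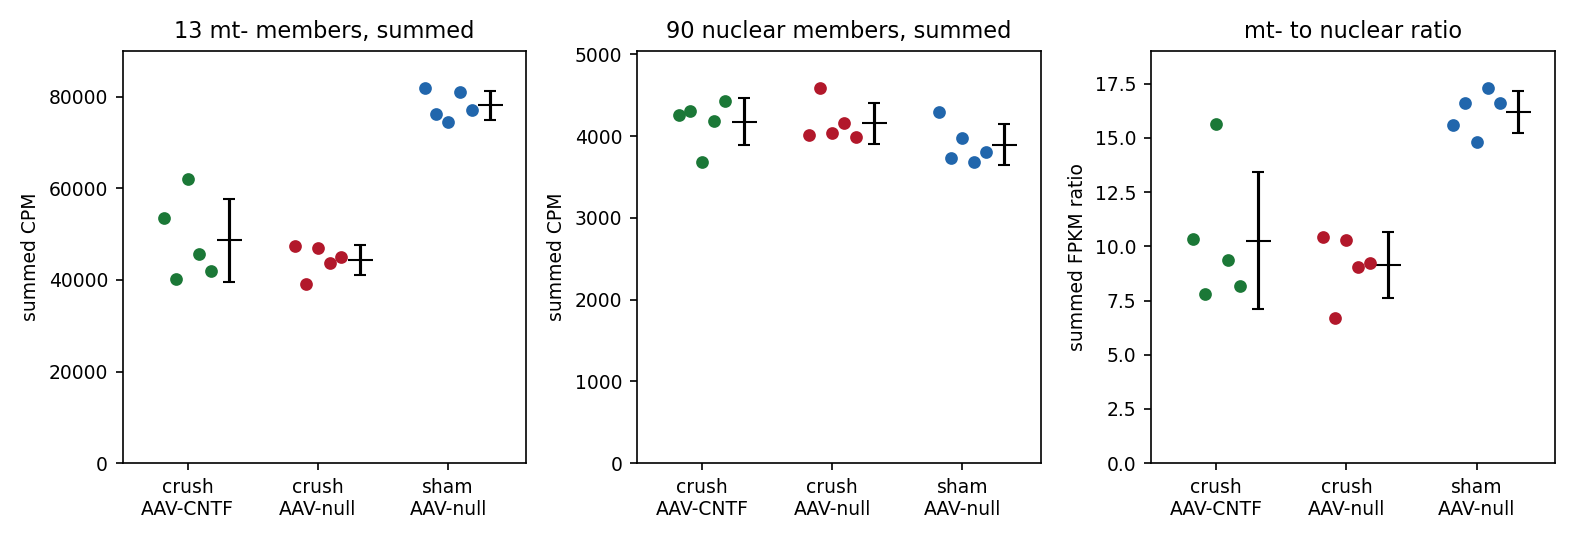
Summed CPM of the 13 mt- members (left), summed CPM of the 90 nuclear members (middle) and the ratio of the summed FPKM of both classes (right) in crush AAV-CNTF, crush AAV-null and sham AAV-null libraries. Points are libraries in order of replicate number, and the bar beside them is the mean ± SD (n = 5). The mt- sum reaches 62120 CPM at most after crush and is at least 74600 CPM after sham.

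On a scale that accounts for gene length (FPKM, fragments scaled by gene length and library size), the summed mt- level averaged 10.3 ± 3.17 times the summed nuclear level after crush with AAV-CNTF, 9.13 ± 1.51 times after crush with AAV-null and 16.2 ± 0.979 times after sham (SD, n = 5 each). Per library the FPKM ratio was 10.33, 7.79, 15.65, 9.37 and 8.17 after crush with AAV-CNTF, 10.42, 6.68, 10.31, 9.03 and 9.24 after crush with AAV-null, and 15.61, 16.6, 14.8, 17.29 and 16.62 after sham. The crush AAV-null libraries all lay under the sham libraries, and crush AAV-CNTF replicate 4 lay within the sham range. In that library the very short mt-Atp8 made up 35.74% of the mt- FPKM, and with mt-Atp8 left out the ratio ran to at most 10.06 after crush with AAV-CNTF and 7.84 after crush with AAV-null, against at least 12.3 after sham. Leaving out mt-Atp8 was chosen after the data were seen. Both parts of the ratio differed, since the summed mt- FPKM averaged 88200 ± 19160 after crush with AAV-CNTF, 77920 ± 6890 after crush with AAV-null and 112700 ± 6972 after sham, and the summed nuclear FPKM averaged 8751 ± 719.5 after crush with AAV-CNTF, 8663 ± 1138 after crush with AAV-null and 6980 ± 518.8 after sham (SD, n = 5 each). The nuclear FPKM sums of the crush AAV-null libraries, 7881 to 10640, were all above those of sham, 6286 to 7601. The mean ratio after crush with AAV-null was 0.564 of the sham mean, and that after crush with AAV-CNTF was 0.634 of it.

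Crush with AAV-null against sham asks what nerve injury does without the cytokine. Of the 13 mt- members 11 fell and 0 rose, with a median log2 fold change of -0.73 and a range of -1.36 to -0.11. Over all 14194 tested genes 12.9% fell and 14.7% rose in this comparison, with a median of 0.005 (edgeR quasi-likelihood test, Benjamini-Hochberg adjusted p under 0.05). For 10 of the 13 mt- members every crush library was under every sham library, against 10.1% of all tested genes. The members that fell were subunits of complexes I, III, IV and V. The exceptions were mt-Atp8, a small ATP synthase membrane subunit, at -0.38 ± 0.19 (SE, edgeR adjusted p = 0.147), and mt-Nd4l, a small complex I subunit, at -0.11 ± 0.18 (edgeR adjusted p = 0.712). The mt-Atp8 result depended on the fit. It passed as a fall with only the 10 libraries compared (edgeR adjusted p = 0.0456) and in the authors' deposited DESeq2 values (adjusted p = 0.0227). On the same strand, mt-Atp8 overlaps mt-Atp6 by 43 bases and mt-Nd4l overlaps mt-Nd4 by 7 bases, where mt-Atp6 was at -0.91 and mt-Nd4 at -0.63. The part of the division of reads between these overlapping genes was not tested. All mt- calls of this comparison held when any library was left out. The 12 oligodendrocyte markers also fell, to a summed 21850 to 30440 CPM after crush with AAV-null, against 51640 to 65620 CPM after sham, and their part in the mt- values was not tested.

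mt-Nd1, a membrane subunit of complex I (chrM:2751-3707), had 5158, 3909, 4720, 4577 and 4156 CPM after crush with AAV-null, against 12020, 10710, 11280, 12440 and 11240 CPM after sham. The highest crush library was under the lowest sham library. mt-Nd1 fell by 1.36 on the log2 scale (SE 0.11, edgeR adjusted p = 1.61e-08). mt-Nd2, the next gene along mtDNA and also a membrane subunit of complex I, fell by 1.12 (SE 0.14, edgeR adjusted p = 3.14e-06). mt-Co1, the catalytic subunit of cytochrome c oxidase and the most abundant member by CPM, had 12970, 10860, 12490, 12290 and 12610 CPM after crush with AAV-null, against 21100, 19610, 19190, 21140 and 20580 CPM after sham. Again no crush library reached a sham library. mt-Co1 fell by 0.73 (SE 0.10, edgeR adjusted p = 7.49e-06). mt-Cytb, the cytochrome b of complex III (chrM:14145-15288), had 8531, 6932, 8383, 7831 and 7747 CPM after crush with AAV-null, against 11630, 11810, 10700, 12100 and 10750 CPM after sham. Its groups did not overlap either, with a smaller fall of 0.53 (SE 0.12, edgeR adjusted p = 0.00247). The complex I subunits mt-Nd4 and mt-Nd5 fell by 0.63 and 0.68. mt-Nd6, the complex I subunit on the other strand (chrM:13552-14070, minus strand), fell by 0.68 (SE 0.12, edgeR adjusted p = 0.000164). It shares 14 bases with mt-Nd5 on the opposite strand, and long RNAs are made from both strands of mtDNA. The strand setting of the counting was not given. Whether the mt-Nd6 row holds reads of its own strand only is therefore not known.

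The size of the fall varied along mtDNA, a description chosen after the values were seen and not tested. mt-Nd1 and mt-Nd2 are the first messages after the ribosomal RNA genes. They had the largest falls among members without a chromosome 1 copy in the rows compared. mt-Cytb, the last on that strand, had a smaller fall. The members between mt-Nd2 and mt-Cytb did not follow their order along mtDNA, with mt-Atp8 at -0.38 and mt-Nd5, nearer to mt-Cytb, at -0.68. The ratio of mt-Nd1 to mt-Cytb in CPM was 0.559, 0.601, 0.491, 0.518 and 0.583 after crush with AAV-CNTF, 0.605, 0.564, 0.563, 0.584 and 0.536 after crush with AAV-null, and 1.03, 0.907, 1.05, 1.03 and 1.05 after sham. Both crush groups lay apart from sham and overlapped each other. The mitochondrial ribosomal RNAs, which lie before mt-Nd1 and are not members, also fell in crush AAV-null against sham, mt-Rnr1 by 0.69 (SE 0.15, edgeR adjusted p = 0.00113) and mt-Rnr2 by 0.44 (SE 0.10, edgeR adjusted p = 0.00147). Libraries were depleted of ribosomal RNA, and the part of that step in the ribosomal RNA values was not tested.

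**Figure D2:**
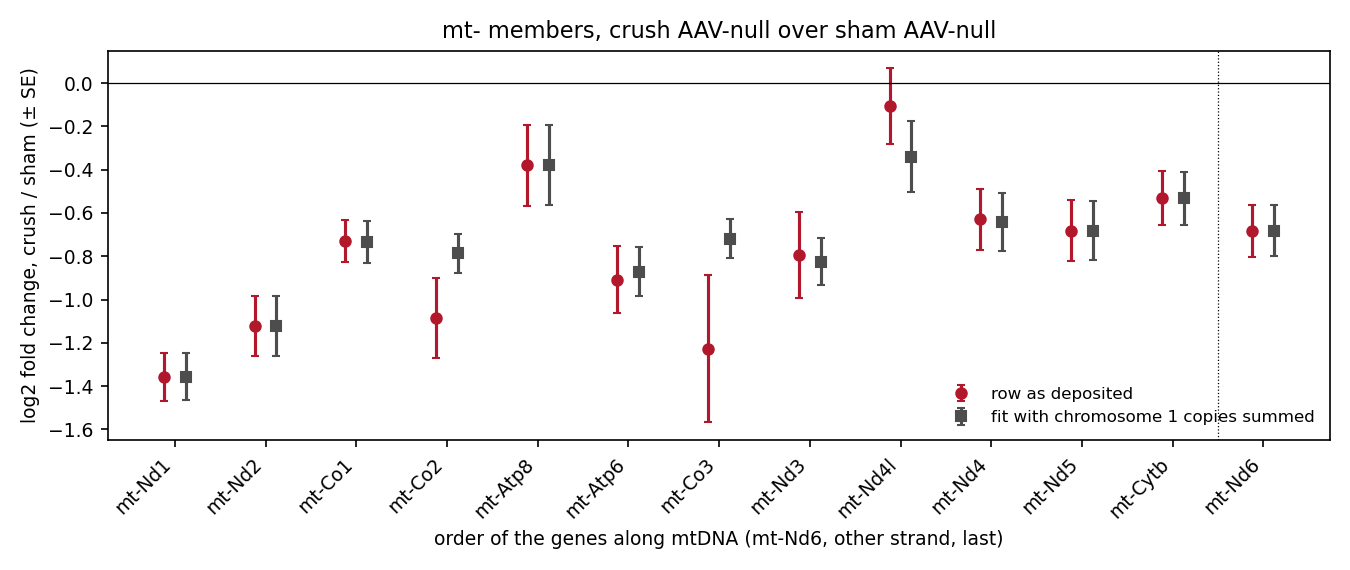
Log2 fold change of crush AAV-null over sham AAV-null with its SE for the 13 mt- members in their order along mtDNA, with mt-Nd6 of the other strand last. Circles are the rows as deposited and squares are the fit in which the 7 rows with a chromosome 1 copy were summed with it and the other rows were left as they are; mt-Nd1 lies lowest among the squares, and mt-Atp8 and mt-Nd4l lie highest.

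Summing with the chromosome 1 copy gave a smaller coefficient of variation in each of the 3 groups for mt-Co2, mt-Co3, mt-Nd3, mt-Atp6 and mt-Nd4. The exceptions among the 7 were mt-Nd4l after crush with AAV-CNTF, at 30.7% for the sum and 28.4% for the single row, and mt-Co1 after crush with AAV-null, at 6.65% and 6.63%. The row of Gm28661 held more CPM than the row of mt-Co2 in every library, with 3111 to 4502 CPM against 826.4 to 1158 CPM after crush with AAV-null. The mt-Co2 row held 8.09% to 16% of the summed counts after crush with AAV-CNTF, 15.7% to 26.6% after crush with AAV-null and 20% to 32.6% after sham. For mt-Co3, another subunit of cytochrome c oxidase, the single row had a coefficient of variation of 54.2%, 37.8% and 26.3% in crush AAV-CNTF, crush AAV-null and sham libraries, and the sum had 4.37%, 10.4% and 7.83%. Summed, mt-Co2 had 5342, 4325, 4997, 4146 and 4355 CPM after crush with AAV-null, against 8158, 7922, 7705, 8637 and 7558 CPM after sham, and mt-Co2 fell by 0.79 (SE 0.09, edgeR adjusted p = 1.49e-06) where the single row fell by 1.08 (SE 0.18). Summed mt-Co3 fell by 0.72 (SE 0.09, edgeR adjusted p = 3.26e-06) where the single row fell by 1.23 (SE 0.34). mt-Atp6, the ATP synthase subunit that forms the proton path, fell by 0.87 and mt-Nd3 of complex I by 0.83 as sums. With sums, 11 of 13 mt- members fell in crush AAV-null against sham, the same number as with single rows, and the median was -0.72. mt-Nd4l was at -0.34 ± 0.16 as a sum (SE, edgeR adjusted p = 0.135).

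**Figure D3:**
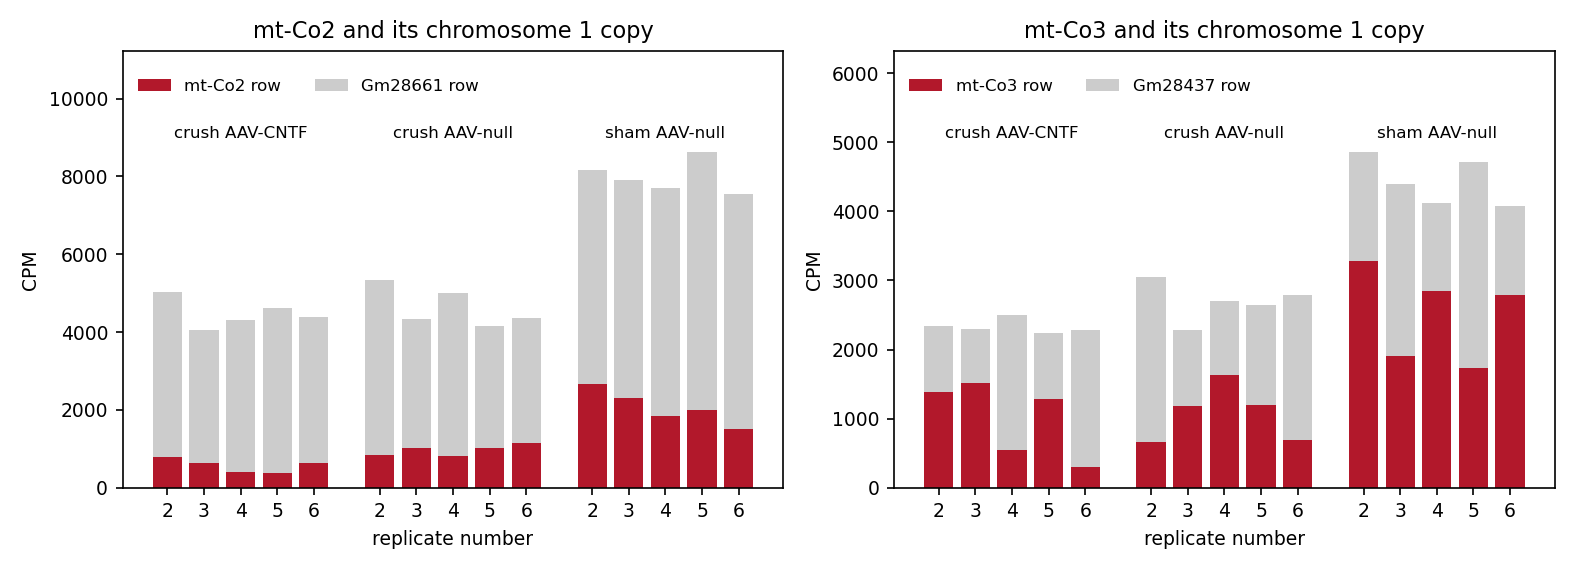
CPM of the rows of mt-Co2 and Gm28661 (left) and of mt-Co3 and Gm28437 (right), stacked, in each library, by group and replicate number. The division between rows varies within a group, while the height of the stack varies less; for mt-Co3 in the crush AAV-CNTF group the coefficient of variation is 54.2% for the single row and 4.37% for the sum.

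Most nuclear members did not pass the test in the same comparison. Of 90, 4 rose, 1 fell and 85 did not pass the test, against 14.7% and 12.9% of all tested genes, and the median log2 fold change was 0.12 with a range of -0.62 to 1.67. By complex, 1 of 36 members of complex I rose and 0 fell, with a median of 0.08, and 0 of 8 passed the test in complex III, with a median of 0.24. In complex IV 1 of 16 rose and 0 fell (median 0.17), in complex V 2 of 15 rose and 0 fell (median 0.23), and in complex II 1 of 4 fell (median 0.07). None of the 8 assembly factors passed the test, with values of 0.03 to 1.23. The count of nuclear members that rose depended on single libraries, being 7 without crush AAV-null replicate 2, 2 without crush AAV-null replicate 3 and 7 without crush AAV-null replicate 6. Without crush AAV-null replicate 5, 2 nuclear members fell, the second being Cox7a2l, a factor that joins complexes III and IV (edgeR adjusted p = 0.0273).

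**Figure D4:**
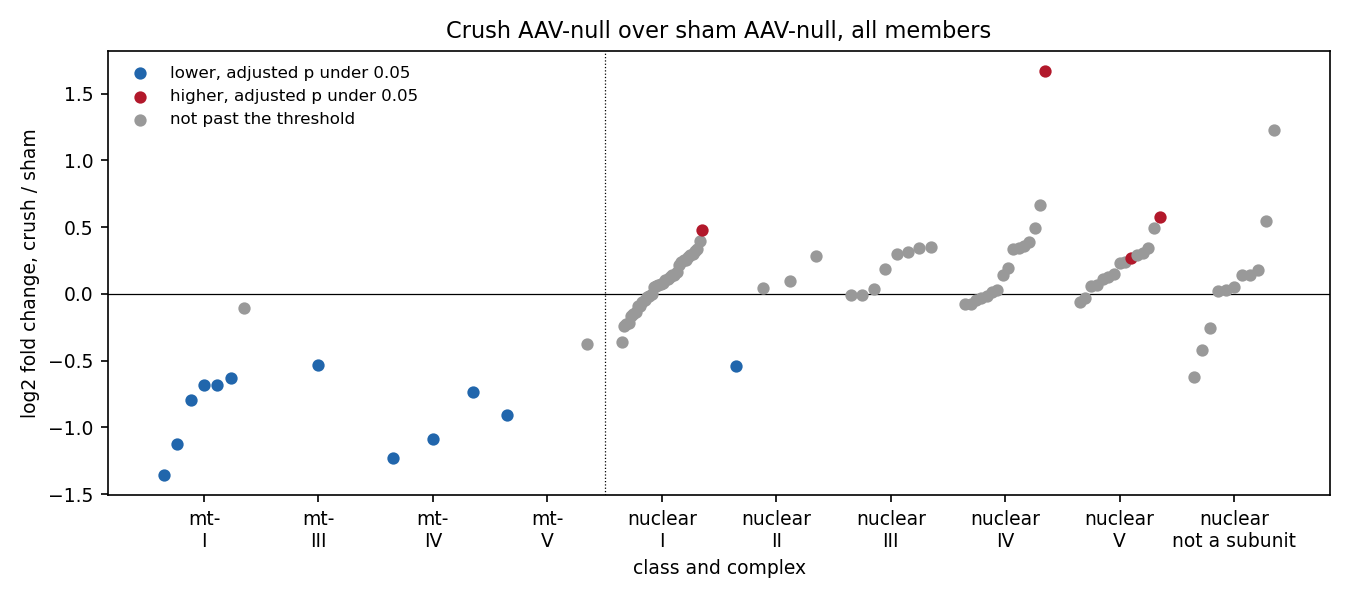
Log2 fold change of crush AAV-null over sham AAV-null of the 103 members, by class and complex, sorted within each column. Each point is a gene, coloured by its edgeR call; 11 of 13 mt- points are lower, and 85 of 90 nuclear points did not pass the threshold.

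Sdha, the flavoprotein that carries the active site of succinate dehydrogenase (chr13:74322254-74350280, minus strand), was the nuclear member that fell. It had 98.13, 103.3, 100.3, 105.6 and 100.8 CPM after crush with AAV-null, against 144.9, 142.1, 144.1, 154.3 and 152 CPM after sham. The libraries of each group were close together and the groups did not overlap. Sdha fell by 0.54 on the log2 scale (SE 0.09, edgeR adjusted p = 7.38e-05), and the call held when any library was left out. In the deposited FPKM, Sdha had 54.85 to 103.7 after crush with AAV-null and 98.05 to 141.4 after sham, so that on that scale the ranges overlapped. The other 3 subunits of complex II did not pass the test, with Sdhb, the iron-sulfur subunit, at 0.29 ± 0.16 and the membrane anchors Sdhc and Sdhd at 0.09 ± 0.15 and 0.04 ± 0.20 (log2 fold change ± SE).

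Cox6b2, known as the testis form of a cytochrome c oxidase subunit that faces the intermembrane space (chr7:4751792-4753094, minus strand), had the largest rise of a nuclear member. It had 23.03, 13.51, 23.08, 25.27 and 11.98 CPM after crush with AAV-null, against 5.78, 5.21, 5.49, 8.47 and 5.51 CPM after sham. All crush libraries were above all sham libraries, with sham replicate 5 the highest of its group. Cox6b2 rose by 1.67 on the log2 scale (SE 0.24, edgeR adjusted p = 1.98e-05), and the call held when any library was left out. Its partner Cox6b1, the form of most tissues, averaged 77.8 ± 15.4 CPM after crush with AAV-null and 59.2 ± 6.6 CPM after sham (SD, n = 5 each), a log2 fold change of 0.39 ± 0.15 that did not pass the test (edgeR adjusted p = 0.0617). It passed without crush AAV-null replicate 2, crush AAV-null replicate 6 or crush AAV-CNTF replicate 4, with edgeR adjusted p of 0.0414, 0.0462 and 0.0272. In FPKM, Cox6b2 made up 23.7% ± 4.94 of the Cox6b2 and Cox6b1 pair after crush with AAV-CNTF, 25.9% ± 6.32 after crush with AAV-null and 12.1% ± 2.59 after sham (SD, n = 5 each), and every crush library was above every sham library.

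The promoters of these 2 genes are shown because they carry the strongest nuclear fall and rise. Each run covers 250 bases before to 50 bases after the RefSeq start (GRCm38.p6), read on the minus strand, at chr13:74350191-74350490 for Sdha and at chr7:4753045-4753344 for Cox6b2. Capitals mark matches to CGCANGCG, a core of the site of the nuclear respiratory factor NRF1, a regulator of respiratory chain genes, searched on both strands.
Sdha: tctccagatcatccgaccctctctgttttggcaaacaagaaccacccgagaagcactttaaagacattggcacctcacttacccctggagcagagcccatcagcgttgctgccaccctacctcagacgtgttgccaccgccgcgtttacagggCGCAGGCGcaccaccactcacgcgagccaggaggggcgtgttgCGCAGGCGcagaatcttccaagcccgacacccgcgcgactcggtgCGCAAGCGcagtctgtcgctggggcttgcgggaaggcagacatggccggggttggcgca
Cox6b2: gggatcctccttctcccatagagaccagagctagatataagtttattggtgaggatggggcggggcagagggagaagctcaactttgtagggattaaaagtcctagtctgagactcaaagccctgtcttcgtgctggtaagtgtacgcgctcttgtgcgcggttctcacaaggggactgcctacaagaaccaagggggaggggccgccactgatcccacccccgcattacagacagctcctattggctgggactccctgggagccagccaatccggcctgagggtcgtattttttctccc
The Sdha window holds 3 matches and the Cox6b2 window none. A promoter was matched for 75 of the 90 nuclear members. The NRF1 letters were in 33 of their 81 windows (40.7%), against 2697 of all 32851 windows (8.21%), which were not matched on base composition. ACCGGAAG, a core of the GABP site, was in 8.6% of members' windows against 2.30% of all windows, and AAGATGGCG, a core of the YY1 site, was in 12.3% of members' windows against 1.40% of all windows, each searched on both strands. A match is a run of letters and not a measured binding site.

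The 3 smaller rises were in complexes V and I, and their groups overlapped in CPM. In the deposited FPKM, where the nuclear sum was also higher after crush with AAV-null, they did not overlap. Atp5g2 had 89.19 to 136.4 after crush with AAV-null and 40.26 to 85.03 after sham. Ndufa1 had 144.7 to 201.8 and 80.92 to 135.1, and Atp5b had 440.8 to 667.1 and 263.8 to 432.4, in the same order. Atp5g2, a gene for the membrane ring of ATP synthase, had 51.53, 64.05, 43.59, 62.51 and 53.99 CPM after crush with AAV-null, against 22.3, 42.73, 40.96, 31.37 and 47.69 CPM after sham. Crush AAV-null replicate 4 lay under sham replicate 6, and there was no other overlap. Atp5g2 rose by 0.57 (SE 0.18, edgeR adjusted p = 0.0172). Ndufa1, an accessory subunit of complex I whose gene is on chromosome X, rose by 0.48 (SE 0.16, edgeR adjusted p = 0.0314), with 34.4 ± 3.5 CPM after crush with AAV-null and 24.7 ± 4.3 CPM after sham (SD, n = 5 each). The Ndufa1 call was lost without crush AAV-null replicate 2, 3 or 6 or without sham replicate 2, 3, 4 or 5, at edgeR adjusted p of 0.0538 to 0.0855. Atp5b, the catalytic beta subunit of ATP synthase and the nuclear complex V member with the highest FPKM, had 277.2, 340.3, 263.9, 284 and 324.1 CPM after crush with AAV-null, against 255.5, 238.7, 265.4, 229.7 and 246 CPM after sham. Sham replicate 4 was above crush replicate 4, and the other crush libraries were above all sham libraries. Atp5b rose by 0.27 (SE 0.09, edgeR adjusted p = 0.0224), and the call was lost without crush AAV-null replicate 3 or 6 or without sham replicate 3 or 5, at edgeR adjusted p of 0.0531 to 0.0707. With the level of the skeletal muscle list as a covariate, Atp5g2, Ndufa1 and Atp5b did not pass the test (edgeR adjusted p = 0.0849, 0.128 and 0.122), and Cox6b2 was then the 1 nuclear member that rose. That level itself averaged less after crush, with a mean log2 CPM of 0.77 ± 1.2 after crush with AAV-null and 2.03 ± 1.22 after sham (SD, n = 5 each). The parts of muscle and of crush therefore cannot be fully told apart in that fit.

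**Figure D5:**
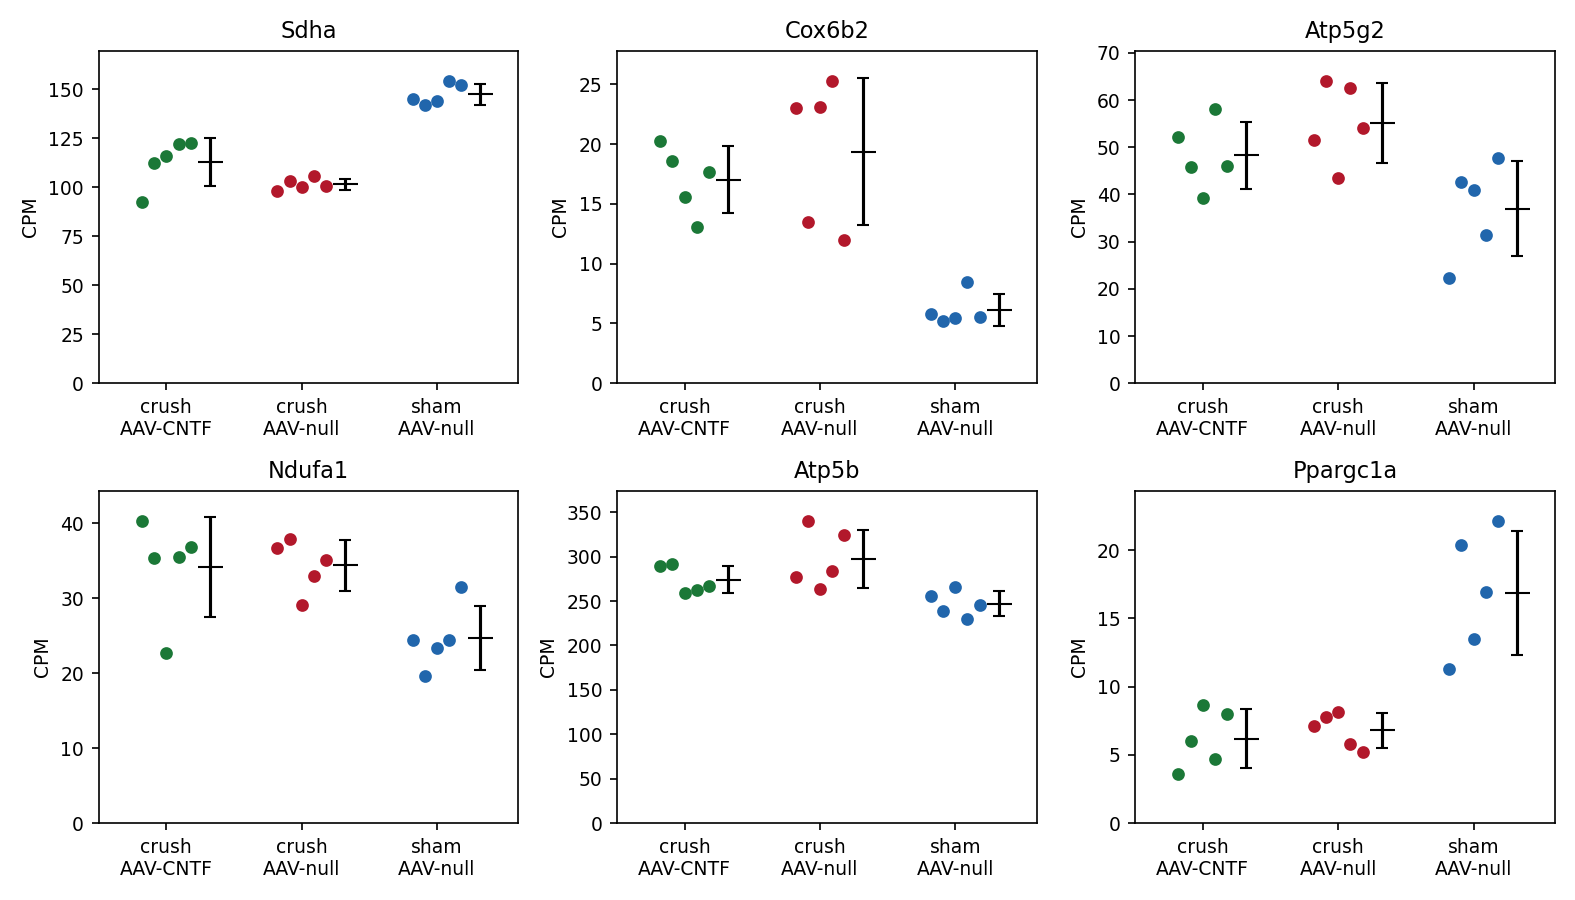
CPM per library of the 5 nuclear members that passed the test in crush AAV-null against sham AAV-null, Sdha, Cox6b2, Atp5g2, Ndufa1 and Atp5b, and of Ppargc1a, a regulator outside the members. Points are libraries in order of replicate number and bars are the mean ± SD (n = 5); the crush AAV-null and sham AAV-null libraries do not overlap for Sdha, Cox6b2 and Ppargc1a, and they overlap for the other 3 genes.

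The other 4 isoforms known from particular tissues did not pass the test in crush AAV-null against sham. Cox6a2, the heart and skeletal muscle form of its subunit, made up 1.14% ± 0.494 of the Cox6a2 and Cox6a1 pair after crush with AAV-null and 0.758% ± 1.08 after sham in FPKM (SD, n = 5 each), with sham replicate 5 at 2.65%. That library also had the highest CPM of Atp2a1, the calcium pump of fast muscle, at 98.46, against 3.17 to 13.28 in the other sham libraries. Cox7a1, another muscle form, took 14.6% ± 11 of its pair with Cox7a2 after crush with AAV-null and 14.8% ± 3.25 after sham, and Ndufa4l2, known from vessel wall cells, took 16.1% ± 5.44 of its pair with Ndufa4 after crush with AAV-null and 18.7% ± 8.89 after sham (SD, n = 5 each). Cox4i2, the form known from lung and vessel wall, took 3.08% ± 1.37 of its pair with Cox4i1 after crush with AAV-null and 2.03% ± 1.35 after sham. The most abundant nuclear member per length in complex IV, Cox6a1, was at a log2 fold change of -0.03 ± 0.11, in complex I Ndufa3 was at -0.15 ± 0.13 and in complex III Uqcr11 was at 0.04 ± 0.20 (SE), none past the test.

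Crush with AAV-CNTF against crush with AAV-null asks what the cytokine changes in injured nerves. None of the 103 members passed the test, against 8 of 14194 genes (0.0564%) over all tested genes (edgeR, adjusted p under 0.05). At an unadjusted p under 0.05 there were 2 mt- and 3 nuclear members, against 1091 of all tested genes, and DESeq2 also called 0 members. The median log2 fold change was 0.15 over the mt- members and 0.02 over the nuclear members. A p that misses the threshold does not show that the groups were alike, and the SE of single members gives the size that could be seen. For Sdha the difference was 0.16 ± 0.09 and for Cox6b2 it was -0.19 ± 0.23 (log2 fold change ± SE).

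The member with the lowest p in that comparison was mt-Co2, with 792.7, 648.1, 404.9, 372.7 and 642.2 CPM after crush with AAV-CNTF, against 839.9, 1016, 826.4, 1036 and 1158 CPM after crush with AAV-null. All AAV-CNTF libraries were under all AAV-null libraries, as they were for 0.712% of all tested genes, at a log2 fold change of -0.77 ± 0.18 (SE, edgeR adjusted p = 0.129). With the skeletal muscle list as a covariate it was -0.85 and passed the test (edgeR adjusted p = 0.0443). Summed with Gm28661, whose row took the larger part of the counts, mt-Co2 was 5038, 4044, 4315, 4608 and 4378 CPM after crush with AAV-CNTF, against 5342, 4325, 4997, 4146 and 4355 CPM after crush with AAV-null, and the groups overlapped. The log2 fold change of the sum was -0.05 ± 0.09 (SE, edgeR adjusted p = 0.967). The next members by p were mt-Nd2 at 0.36 ± 0.14, Atp5h, a stalk subunit of ATP synthase, at 0.31 ± 0.13, Cox6c of complex IV at 0.25 ± 0.11 and Uqcrc1, a core protein of complex III, at -0.25 ± 0.11 (log2 fold change ± SE), with edgeR adjusted p of 0.482 to 0.617.

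Crush with AAV-CNTF against sham shares the sham libraries with the first comparison and the crush AAV-CNTF libraries with the second, and is set beside them only. Of 13 mt- members 10 fell and 0 rose, with a median of -0.68, against 14.3% that fell and 17% that rose over all tested genes (edgeR, adjusted p under 0.05). mt-Nd1 had 5653, 4231, 6047, 4614 and 4439 CPM after crush with AAV-CNTF and was under the lowest sham library, 10710 CPM, in all 5. It fell by 1.21 (SE 0.11, edgeR adjusted p = 6.43e-08). mt-Co1 fell by 0.68 (SE 0.10, edgeR adjusted p = 1.51e-05). mt-Cytb was at -0.31 ± 0.12 (SE, edgeR adjusted p = 0.0626), with crush AAV-CNTF replicate 4 at 12310 CPM above all sham libraries, and without that library it fell by 0.44 (edgeR adjusted p = 0.00344). mt-Nd4 fell by 0.42 (SE 0.14, edgeR adjusted p = 0.0243), and its call was lost without crush AAV-CNTF replicate 3, 5 or 6 or without sham replicate 2 or 5, at edgeR adjusted p of 0.0501 to 0.0759. With the skeletal muscle list as a covariate mt-Nd4 and mt-Nd5 did not pass the test (edgeR adjusted p = 0.168 and 0.118). With the copies summed, 10 of 13 fell and the median was -0.68.

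Among the 90 nuclear members 9 rose and 1 fell in crush AAV-CNTF against sham, with a median of 0.12, against 17% that rose and 14.3% that fell over all tested genes. Sdha, with 92.63, 112.5, 116, 121.9 and 122.8 CPM after crush with AAV-CNTF, was again under all sham libraries, and it fell by 0.38 (SE 0.09, edgeR adjusted p = 0.00179). In FPKM, Sdha had 87.76 to 151.1 after crush with AAV-CNTF, which overlapped the sham range. Cox6b2, with 20.27, 18.54, 15.54, 13.07 and 17.65 CPM after crush with AAV-CNTF, was above all sham libraries and rose by 1.48 (SE 0.24, edgeR adjusted p = 6.01e-05). The other rises were smaller and lay in complexes III, V and I. Uqcrb, a small subunit of complex III, had 47.96, 42.71, 58.73, 43.5 and 59.56 CPM after crush with AAV-CNTF, against 33.52, 43.19, 33.65, 27.51 and 26.92 CPM after sham, and rose by 0.62 (SE 0.17, edgeR adjusted p = 0.00658). Crush AAV-CNTF replicate 3 of Uqcrb lay under sham replicate 3, and there was no other overlap. Uqcr10 and Uqcrq, also of complex III, rose by 0.56 and 0.38, the ATP synthase genes Atp5o, Atp5c1 and Atp5f1 by 0.43, 0.39 and 0.37, and Ndufa1 by 0.47. Ndufs6 of complex I, named after its values were seen, rose by 0.37 (edgeR adjusted p = 0.0418). Its call was not followed singly in the repeats, and in the authors' deposited DESeq2 values Ndufs6 did not pass (adjusted p = 0.0588). The call was lost for Ndufa1 without crush AAV-CNTF replicate 2, 3, 5 or 6 or sham replicate 2, 3, 4 or 5 (edgeR adjusted p of 0.0559 to 0.0858). It was lost for Uqcrq without crush AAV-CNTF replicate 2, 5 or 6 or sham replicate 2, 4 or 6 (edgeR adjusted p of 0.055 to 0.088), and for Atp5f1 without crush AAV-CNTF replicate 5 or 6 or sham replicate 4 or 6 (edgeR adjusted p of 0.0548 to 0.083). With the skeletal muscle covariate 3 nuclear members rose. Without crush AAV-CNTF replicate 5 or without crush AAV-CNTF replicate 6 the count of rises was 5, and without crush AAV-CNTF replicate 3, 2 nuclear members fell. Atp5f1 overlaps Wdr77, which is listed, on the other strand, and Ndufs6 overlaps Mrpl36, also listed, there by 30 bases. Uqcrb, Atp5o and Sdha overlap unlisted genes on the other strand in GENCODE M21. The strand setting of the counting was not given in the sources used here, so it is not known whether reads of the overlapping bases were told apart.

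Some genes of other mitochondrial lists, taken as background to the members, passed the test in crush AAV-null against sham, where 14.7% of all tested genes rose and 12.9% fell. None of 24 tested genes for mtDNA replication, transcription and RNA handling passed the test, with a median of 0.06. Of 13 regulators of mitochondrial biogenesis 1 fell and 1 rose. Ppargc1a, the coactivator PGC-1alpha, had 7.09, 7.78, 8.16, 5.82 and 5.18 CPM after crush with AAV-null, against 11.27, 20.35, 13.5, 16.95 and 22.14 CPM after sham, without overlap, and fell by 1.31 (SE 0.28, edgeR adjusted p = 0.00125). Pprc1, a related coactivator, rose by 0.41 (SE 0.13, edgeR adjusted p = 0.0219). Of 17 genes of the citric acid cycle, a list that leaves out Sdha to Sdhd, 2 fell, among them the isocitrate dehydrogenase Idh2 by 0.59 (SE 0.14, edgeR adjusted p = 0.00295).

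The carriers that exchange ADP and ATP across the inner membrane, Slc25a4 and Slc25a5, went in opposite directions, the first falling by 0.34 and the second rising by 0.63 (edgeR adjusted p = 0.00226 and 0.00142) among 15 genes of the outer membrane, import and exchange list, of which 2 rose and 1 fell. Slc25a4 had 140.2 to 168.8 CPM after crush with AAV-null and 189.6 to 207.3 CPM after sham, and Slc25a5 had 84.08 to 138.8 CPM after crush with AAV-null and 57.06 to 83.74 CPM after sham. Neither gene's groups overlapped. Of 49 genes of the large subunit of the mitochondrial ribosome 6 rose and 1 fell, with a median of 0.17. Beside this and the other lists here, 14.7% of all tested genes rose and 12.9% fell. Mrpl36, named as the largest rise among the 49, was at 1.06 (SE 0.25, edgeR adjusted p = 0.00263). Of 40 assembly factors outside the naming rule 2 rose, 2 fell and 36 did not pass the test, with a median of 0.08. Those that rose are not named here. Surf1 and Cox17, both needed to build cytochrome c oxidase, fell by 0.70 and 0.62 (edgeR adjusted p = 0.0116 and 0.0139). Coq8a, an enzyme needed to make coenzyme Q, fell by 1.5 (SE 0.39, edgeR adjusted p = 0.0059) and was the 1 of 11 tested genes for cytochromes c and c1 and coenzyme Q synthesis to pass the test. In crush AAV-CNTF against crush AAV-null no gene of these lists passed the test.

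Markers of the cell types of the nerve moved in the same comparisons. Over all tested genes 14.7% rose and 12.9% fell in crush AAV-null against sham, to which the counts below refer unless stated. The 12 oligodendrocyte and 10 astrocyte markers were above 0 in every library, as the tissue label would have it. All 12 oligodendrocyte markers fell in crush AAV-null against sham, with a summed level of 17890 to 25710 CPM after crush with AAV-CNTF, 21850 to 30440 CPM after crush with AAV-null and 51640 to 65620 CPM after sham. Of 10 astrocyte markers 8 fell, and all 12 phagocyte markers rose, with a summed level of 14350 to 24990 CPM after crush with AAV-CNTF, 20620 to 28780 CPM after crush with AAV-null and 7706 to 9551 CPM after sham. All 10 cell cycle genes rose, and 6 of 8 fibroblast genes rose. Of 9 axon and ganglion cell genes 4 fell, which were Nefh, Nefl, Nefm and Snap25, and 3 rose, which were Stmn2, Thy1 and Gap43, with a summed level of 96.85 to 141.4 CPM after crush with AAV-CNTF, 89.15 to 128 CPM after crush with AAV-null and 199.4 to 221 CPM after sham. None of 11 skeletal muscle genes passed the test, with a summed level of 7.55 to 62.76 CPM after crush with AAV-CNTF, 17.76 to 88.89 CPM after crush with AAV-null and 25.6 to 250.2 CPM after sham. All of them but Atp2a1 and Myh1 were at 0 in at least 1 library. All 11 had a log2 fold change below 0, with a median of -1.42. In crush AAV-CNTF against sham 3 of the 11 fell, with a median of -1.67, against 14.3% of all tested genes that fell there. The mean log2 CPM of the list was 0.32 ± 1.31 after crush with AAV-CNTF, 0.77 ± 1.2 after crush with AAV-null and 2.03 ± 1.22 after sham (SD, n = 5 each). The muscle covariate thus differed between the groups compared. The part of these cell types in the OXPHOS values was not tested.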

How the data were processed

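RNA was measured in 15 optic nerve libraries of 3 groups of 5. Per the labels' protocols, RNA was purified on RNeasy Micro columns with DNase, 2 ribosomal RNA depletion kits are named (Nugen AnyDeplete and TruSeq Stranded Total), and libraries were sequenced on an Illumina NovaSeq. No source used here tells which library had which kit. The submitters' processing notes name Trimmomatic 0.32, STAR 2.5.3a, RSEM 1.2.31, R 3.2.3 and DESeq2, and the mm10 build. The authors deposited 1 table of 14237 genes with RSEM expected counts, which need not be whole, and FPKM values, scaled by the authors for length and depth, per the file headers. The authors also deposited a log2 fold change and an adjusted p-value per pair of groups. Every gene in the table reaches an FPKM of 1 in 4 or more libraries of a group, and genes under that level were not analysed here. Of the expected counts 13.7% to 18.3% per library were not whole and were rounded.

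Counts were fitted in R 4.3.3 with edgeR 4.0.16 (TMM, filterByExpr, quasi-likelihood test, 1 model of group means for all 15 libraries with 12 residual degrees of freedom) on the whole table. Adjustment was by Benjamini-Hochberg over 14194 tested genes with 0.05 as the threshold, and SE is the absolute log2 fold change over the root of F. RSEM divides reads that match several places by estimate, which bears on the mt- rows and their nuclear copies. The totals of 19856688 to 29558293 expected counts make counting error small for all but the lowest members, and the spread between libraries sets the precision. Members, gene lists and tests were chosen with earlier results of these data known. Nuclear members were named as the up to 8 largest falls and rises past the threshold that averaged 5 CPM or more, the member highest in FPKM per complex, all complex II subunits and tissue isoforms, and where under 5 passed, the next 5 by p. All mt- members were named. The fit was tested on simulated data with known changes. Alternatives were other normalizations (RLE, upper quartile), mt- genes left out of library sizes, no filter or a mean of 1 CPM, DESeq2 1.42.0, limma-voom (limma 3.58.1), only the 10 libraries compared, a replicate block, a skeletal muscle covariate and each library left out. Within groups no library repeated another, with chi-square values of 40.7 to 154 times their degrees of freedom over 30 pairs. Sequences came from GENCODE M21 and RefSeq. The values of 1 gene that a list count includes are not reported here.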

Additional observations from a re-analysis of the deposited data

Results flagged for a closer look

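Among 150 sets of 5 libraries examined (a member in a group), 9 had 1 library far from the other 4 by Dixon's criterion, and chance alone gives about 1 in 20. In the sham group, Cox6b2 was high in replicate 5 at 8.47 CPM (next 5.78), Cox6a2 was high in the same library at 7.45 CPM (next 1.38), and Sdhd was low there at 13.5 CPM (next 24.1). That library also held the highest skeletal muscle list level, a mean log2 CPM of 3.82, and the part of muscle in these values was not tested. Cox8a was high in sham replicate 2 at 133 CPM and Sdhc in sham replicate 4 at 57.8 CPM. In the crush AAV-CNTF group, replicate 4 was low for the accessory subunits Ndufa1 at 22.7 CPM (next 35.4), Uqcr11 at 20.2 CPM (next 41.6) and Cox4i1 at 59.1 CPM (next 98.8), while its summed mt- level, 62120 CPM, was the highest of the crush libraries. Ndufa4l2 was high in crush AAV-CNTF replicate 5 at 18.9 CPM (next 8.34).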

How the results depend on the processing

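Counts and medians were recomputed without each of the 15 libraries and under 12 other settings, and no called value changed direction. The median log2 fold change of nuclear members in crush AAV-CNTF against crush AAV-null, 0.02, lay on both sides of 0, at -0.02 to 0.07 without 1 library and -0.01 to 0.03 otherwise. In crush AAV-null against sham, mt- members that fell numbered 11 without any 1 library and 11 to 12 otherwise. Nuclear members that rose numbered 4, but 1 with the skeletal muscle covariate, 8 without both replicate 6 of crush AAV-null and replicate 4 of crush AAV-CNTF, and 2 to 7 without 1 library, and those that fell 1 to 2. In crush AAV-CNTF against crush AAV-null, members changed numbered 0, but 1 (an mt- member that fell, mt-Co2) with the muscle covariate. In crush AAV-CNTF against sham, mt- members that fell numbered 9 to 11 without 1 library and 8 to 11 otherwise, while nuclear members that rose numbered 9, but 5 with upper quartile normalization, 3 with the muscle covariate and 5 to 10 without 1 library, and those that fell 1 to 2. The mt- to nuclear FPKM ratio of crush AAV-null to sham was 0.545 to 0.602 without 1 library, and that of crush AAV-CNTF 0.551 to 0.672. Calls of named genes other than Ndufs6, which was not followed singly, were lost in 51 and gained in 32 of the single-gene repeats. The cause was not tested. The authors' deposited table called 12 mt- members lower, and 1 nuclear member lower and 5 higher, in crush AAV-null against sham. Over all its 14237 genes it called 1780 lower and 2006 higher there. It called 0 members in crush AAV-CNTF against crush AAV-null, where 20 of all genes were lower and 59 higher. In crush AAV-CNTF against sham it called 10 mt- members lower, and 1 nuclear member lower and 6 higher, against 2037 lower and 2340 higher over all genes. Ndufa1, Uqcrq and Ndufs6 did not pass there.

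Deviations of same-number libraries correlated at -0.05 to 0.11 over 15 pairs, and 3 were best with their own number. All 3 joined crush AAV-CNTF with crush AAV-null libraries, at replicates 2, 3 and 5, with correlations of 0.113, 0.034 and 0.035. Correlations this weak do not settle whether replicate numbers pair the libraries. With the replicate block, 11 mt- members fell and 4 nuclear members rose in crush AAV-null against sham, 0 members changed in crush AAV-CNTF against crush AAV-null, and 11 mt- members fell and 7 nuclear members rose in crush AAV-CNTF against sham. There mt-Cytb passed the test (edgeR adjusted p = 0.0311) and Atp5f1 did not (0.0523). The block changed no other call of the named genes that were followed singly. Ndufs6 was not followed singly, and the 7 nuclear rises do not include it.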
